A study of Mus musculus with 10 samples.

Results

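10 genes of vascular growth factor signaling and the hypoxia response were followed across sorted mouse skeletal stem and stromal cells. They are the VEGF ligands Vegfa, Vegfb and Vegfc, the secreted proteoglycan gene Esm1, the oxygen-regulated transcription factors Hif1a and Epas1, and the hypoxia response genes Egln3, Angptl4, Adm and Ankrd37. All 10 members were found by symbol among the 15078 genes of the expression table. The members were listed with results of these same libraries known, so they were selected on this readout: Esm1 was already known to be among the genes with the largest differences between graft BM-MSCs and P-SSCs. Their values are therefore given as a description, with no p-value.

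The study used bulk RNA sequencing to ask how periosteum-derived stromal cells of a regenerating marrow compare with the resident cells of marrow and periosteum. Graft BM-MSCs (bone marrow mesenchymal stem cells, 4 libraries) were CD51+CD200+Tomato+ cells of Postn Cre-ER;tdTomato femurs, 5 months after the femur had been placed under the skin of a wild-type mouse. Tamoxifen was given to the recipients after the transplantation, so that cells with an active Postn promoter, and their progeny, carry the red label. Postn is not restricted to stem cells of the periosteum, which limits the label as a tracer. BM-MSCs (3 libraries) and P-SSCs (periosteal skeletal stem cells, 3 libraries) were CD51+CD200+ cells of wild-type mice, labelled as host at steady state and with no treatment. These 6 libraries were re-analysed from another series. The study gates both cell types within a CD45-Ter119-CD31- fraction. The labels give a pair of sample numbers, not named as animals, for BM-MSC library 2+4 and for P-SSC library 2+5. The graft libraries thus differed from both others in genotype, tamoxifen, transplantation and source series as well as in origin.

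Values are normalized reads, that is, read counts divided by the size factor of the library. Libraries held 15415421 to 25223295 reads. Between 9308 and 11674 genes were detected in the graft libraries and between 12217 and 13341 in the others, so more genes are listed at 0 in the graft. The tissue labels matched their markers: Cxcl12 and Lepr, genes of marrow stroma, were at 560618 and 22640 or more in every graft and BM-MSC library, and at most 7751 and 1034 in P-SSCs. Pi16 and Cd34 were at 94956 and 50508 or more in P-SSCs and at most 130 and 7.31 elsewhere. Postn itself was listed at 0 in 3 graft libraries and at 235 in graft library 4. The libraries also differed in the relative level of GC-rich genes (a GC score, the log2 deviation of genes over 65% GC against genes of 50 to 60% GC): it was high in the 4 graft libraries and P-SSC 4 and low in the other 5 libraries. In bulk samples, fewer cells of a type and less RNA per cell cannot be told apart.

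VEGF proteins bind receptor tyrosine kinases and neuropilins on endothelial cells and drive vessel growth, Vegfa chiefly for blood vessels and Vegfc chiefly for lymphatic vessels. HIF-1α and HIF-2α, the products of Hif1a and Epas1, are made constantly and destroyed when oxygen is plentiful, after prolyl hydroxylases of the EGLN family mark them for the VHL ubiquitin ligase. When oxygen falls they pair with ARNT and bind a short core motif near target genes, among them Vegfa, Egln3, Angptl4, Adm and Ankrd37. In marrow, stromal cells lie along sinusoids and are a source of factors for vessels and blood-forming cells.

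The 250 bases upstream of the RefSeq start (GRCm38.p6) were available for 8 of the 10 members. Those of Esm1 and Vegfc, which were high together in marrow cells, and of Adm and Egln3, which had their highest group mean in P-SSCs, are shown 5′ to 3′ on the strand of the gene. Capitals mark the core motifs ACGTG and GCGTG on either strand. The windows are chr13:113209409-113209658 (plus strand) for Esm1, chr8:54077282-54077531 (plus) for Vegfc, chr7:110627407-110627656 (plus) for Adm and chr12:54203875-54204124 (minus) for Egln3.
Esm1: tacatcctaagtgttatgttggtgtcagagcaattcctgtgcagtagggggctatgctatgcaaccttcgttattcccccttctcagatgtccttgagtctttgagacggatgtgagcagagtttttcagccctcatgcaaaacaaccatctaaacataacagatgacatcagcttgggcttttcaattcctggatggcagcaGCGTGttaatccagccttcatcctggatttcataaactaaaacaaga
Vegfc: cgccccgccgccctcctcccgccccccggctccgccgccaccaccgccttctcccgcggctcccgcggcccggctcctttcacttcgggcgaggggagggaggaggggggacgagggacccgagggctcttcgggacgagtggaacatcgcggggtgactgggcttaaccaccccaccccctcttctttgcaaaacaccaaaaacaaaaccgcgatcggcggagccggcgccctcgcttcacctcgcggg
Adm: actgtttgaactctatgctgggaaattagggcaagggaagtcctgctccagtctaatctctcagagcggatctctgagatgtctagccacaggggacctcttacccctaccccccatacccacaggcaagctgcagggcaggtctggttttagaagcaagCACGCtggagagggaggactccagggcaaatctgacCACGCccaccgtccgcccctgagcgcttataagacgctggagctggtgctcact
Egln3: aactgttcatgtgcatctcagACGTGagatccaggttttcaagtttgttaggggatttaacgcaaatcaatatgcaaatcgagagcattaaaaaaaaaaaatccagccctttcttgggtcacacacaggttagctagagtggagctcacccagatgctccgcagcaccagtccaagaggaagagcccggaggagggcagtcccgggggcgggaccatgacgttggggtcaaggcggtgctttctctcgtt
The Esm1 and Egln3 windows held 1 core each, the Adm window held 2, and the Vegfc window held none of these letters. A core was present in 38.6% of the 32851 windows of all genes and 2 or more were present in 16.73%, so a match is a description of the sequence only.

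Esm1, which encodes endocan, was abundant in both marrow populations and all but missing in P-SSCs. Its value was 22195, 10238, 15151 and 18196 in graft BM-MSC libraries 1 to 4. BM-MSC libraries 1, 2+4 and 3 measured 26036, 10313 and 15045, and P-SSC libraries 1, 2+5 and 4 measured 1.04, 1.27 and 6.79. The graft and BM-MSC libraries overlapped, and every one of them lay above every P-SSC library. The graft mean of 16445 ± 5044 (SD, n = 4) was 5423 times the P-SSC mean, with an exact 95% Poisson interval of 2857 to 11859 that covers only counting error on the 9 P-SSC reads. Graft BM-MSCs and BM-MSCs (17131 ± 8066, SD, n = 3) differed by -0.01 ± 0.52 (log2, SE). The gene lies at chr13:113209659-113218098 on the plus strand (GENCODE M21, GRCm38), in 3 exon blocks.

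Vegfc, the lymphatic growth factor, was also high in both marrow groups and low in P-SSCs. Graft libraries measured 4329, 3187, 5177 and 3393, BM-MSC libraries 3464, 2069 and 2580, and P-SSC libraries 77.9, 85.3 and 180. The marrow groups overlapped and both lay above P-SSCs. The log2 difference was 5.20 ± 0.36 (SE) for graft BM-MSCs against P-SSCs, -4.62 ± 0.39 for P-SSCs against BM-MSCs and 0.58 ± 0.36 for graft BM-MSCs against BM-MSCs.

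**Figure D1:**
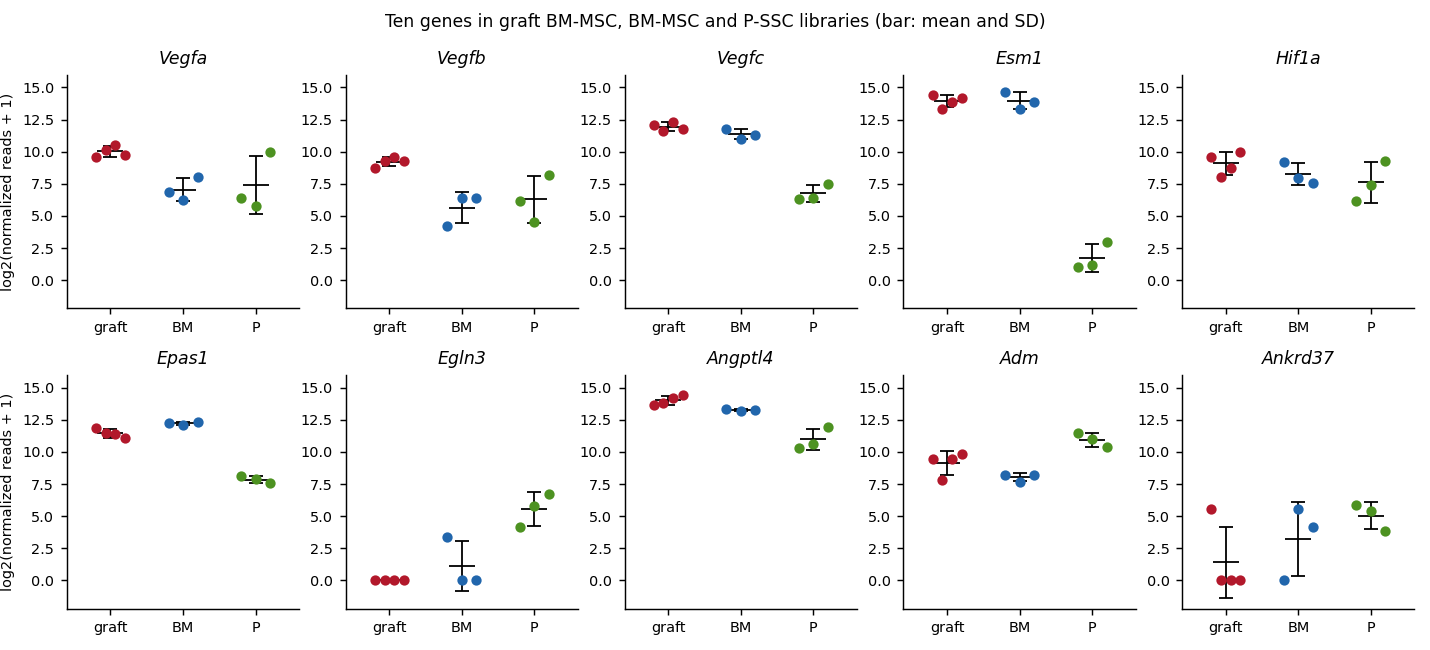
Level of each of the 10 genes as log2(normalized reads + 1), 1 point a library, in 4 graft BM-MSC (graft), 3 BM-MSC (BM) and 3 P-SSC (P) libraries, with the group mean and SD as bars. Esm1, Vegfc, Epas1 and Angptl4 are high in graft and BM-MSC libraries and low in P-SSCs, and Adm and Egln3 are highest in P-SSCs.

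Vegfa and Vegfb, the blood vessel ligand and its close relative, were instead highest in graft BM-MSCs. Vegfa measured 777, 1133, 1495 and 874 in graft libraries, 114, 74.9 and 256 in BM-MSC libraries, and 81.0, 54.8 and 991 in P-SSC libraries 1, 2+5 and 4. P-SSC 4 alone reached the range of the graft. Vegfb measured 423, 630, 769 and 630 in the graft, 17.8, 81.2 and 80.9 in BM-MSCs, and 71.7, 21.7 and 292 in P-SSCs. Every graft library lay above every other library, and P-SSC 4 came next. The log2 difference of graft BM-MSCs against BM-MSCs was 2.99 ± 0.91 (SE) for Vegfa and 3.58 ± 0.93 for Vegfb.

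The levels of these 2 ligands moved with the GC score. The 4 graft libraries and P-SSC 4 were all above the other 5 libraries for both genes, a pattern found in 6.67% of the 13644 genes tested. Vegfb has 62.61% GC in its exons and Vegfa 50.85%, against a median of 49.71%. Among libraries with a high score, graft BM-MSCs exceeded P-SSC 4 by 0.06 (log2) for Vegfa and by 1.04 for Vegfb. Among libraries with a low score, P-SSCs 1 and 2+5 differed from BM-MSCs by -0.95 and -0.31, and the groups overlapped. With the score group as a covariate the difference of graft BM-MSCs against BM-MSCs was -0.89 for Vegfa and 0.73 for Vegfb. That covariate was estimated from P-SSC 4 against P-SSCs 1 and 2+5 alone, so it only combines the differences just given. A correction of each library for gene GC content instead gave 3.87 and 3.12 for graft BM-MSCs against BM-MSCs. Because no BM-MSC library had a high score and no graft library a low score, the score and the group cannot be told apart in that comparison. For Esm1 and Vegfc, graft BM-MSCs exceeded P-SSC 4 by 10.99 and 4.44. The low-score P-SSCs differed from BM-MSCs by -12.85 and -5.00. For graft BM-MSCs against BM-MSCs, the same limit holds for the other members. There the covariate gave -1.86 for Esm1, -0.56 for Vegfc and -0.71 for Angptl4, in place of -0.01, 0.58 and 0.74. The correction for gene GC content gave 0.64, 1.29 and 1.61.

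**Figure D2:**
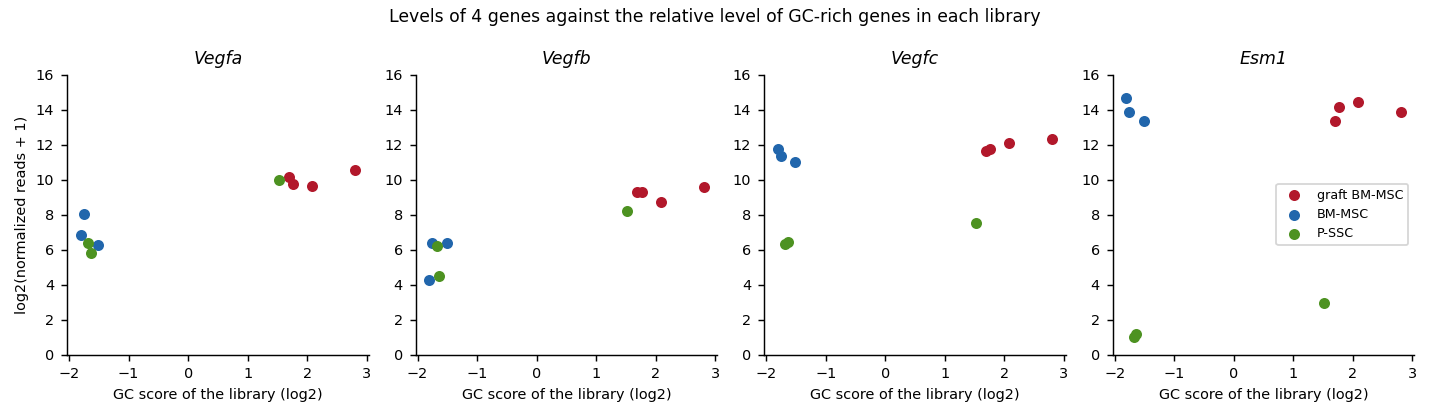
Level of Vegfa, Vegfb, Vegfc and Esm1 as log2(normalized reads + 1) against the GC score of each of the 10 libraries (log2), colored by group. Vegfa and Vegfb separate the 5 libraries of high score from the 5 of low score, whereas Vegfc and Esm1 separate P-SSCs from the other groups at either score.

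Epas1 and Hif1a, which encode the α subunits of HIF-2 and HIF-1, differed in pattern. Epas1 measured 3755, 2798, 2686 and 2149 in the graft, 4888, 4342 and 5104 in BM-MSCs, and 280, 232 and 189 in P-SSCs. No groups overlapped: BM-MSCs were highest and P-SSCs lowest. The log2 difference was 3.59 ± 0.26 (SE) for graft BM-MSCs against P-SSCs and -0.77 ± 0.26 against BM-MSCs. The latter was 0.17 after a correction for GC content, which moved the median of all genes from -0.53 to 0.23. Hif1a measured 767, 263, 425 and 1011 in the graft, 586, 247 and 193 in BM-MSCs, and 69.6, 169 and 617 in P-SSCs. The groups overlapped in every comparison, for P-SSCs through P-SSC 4 alone, the P-SSC library with a high GC score. P-SSCs 1 and 2+5 lay below every graft and BM-MSC library. Exons of Hif1a overlap the antisense gene Gm15283 and the gene Gm49321, and the strand setting of the counting is not given in the sources used here, so its level is uncertain.

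Angptl4, a secreted inhibitor of lipoprotein lipase, was high in marrow cells. It measured 12637, 13984, 19169 and 21504 in the graft, 10208, 9428 and 9991 in BM-MSCs, and 1291, 1597 and 3910 in P-SSCs. No groups overlapped. The log2 difference was 3.03 ± 0.35 (SE) for graft BM-MSCs against P-SSCs, 0.74 ± 0.35 against BM-MSCs and -2.30 ± 0.37 for P-SSCs against BM-MSCs.

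Adm, the gene of the vasodilator peptide adrenomedullin, was highest in P-SSCs. P-SSC libraries measured 2800, 2112 and 1304, graft libraries 708, 220, 700 and 902, and BM-MSC libraries 302, 200 and 298. P-SSCs lay above all other libraries, and the marrow groups overlapped. The log2 difference was -1.82 ± 0.51 (SE) for graft BM-MSCs against P-SSCs and 2.91 ± 0.55 for P-SSCs against BM-MSCs.

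Egln3, a prolyl hydroxylase that marks HIF-α and is itself a HIF target, was low throughout. It was listed at 0 in all 4 graft libraries and at 9.40, 0 and 0 in BM-MSCs, and it measured 16.6, 53.5 and 106 in P-SSCs. The P-SSC mean was at least 23.8 times the graft level, with the graft set to a floor of 3 reads per library. That bound does not cover the spread among P-SSC libraries. Ankrd37, an ankyrin repeat gene, measured 47.5, 0, 0 and 0 in the graft, 0, 45.3 and 16.8 in BM-MSCs, and 57.1, 42.0 and 13.6 in P-SSCs. The groups overlapped, and its exons overlap Ufsp2 and Lrp2bp on the opposite strand, so these values are uncertain. Both genes passed the filter, a mean of at least 10 normalized reads, through a few libraries.

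Per kilobase of exon, Esm1 had the highest level of the 10 genes in graft BM-MSCs (7842 ± 2405 normalized reads per kb, SD, n = 4) and in BM-MSCs (8169 ± 3847, n = 3), and the lowest in P-SSCs (1.45 ± 1.55, n = 3). Angptl4 was next in both marrow groups, at 4751 ± 1187 and 2789 ± 114, and the ranges of the 2 genes per kb were not compared by a test. In P-SSCs Adm was highest at 1280 ± 463, followed by Angptl4 at 640 ± 404.

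**Figure D3:**
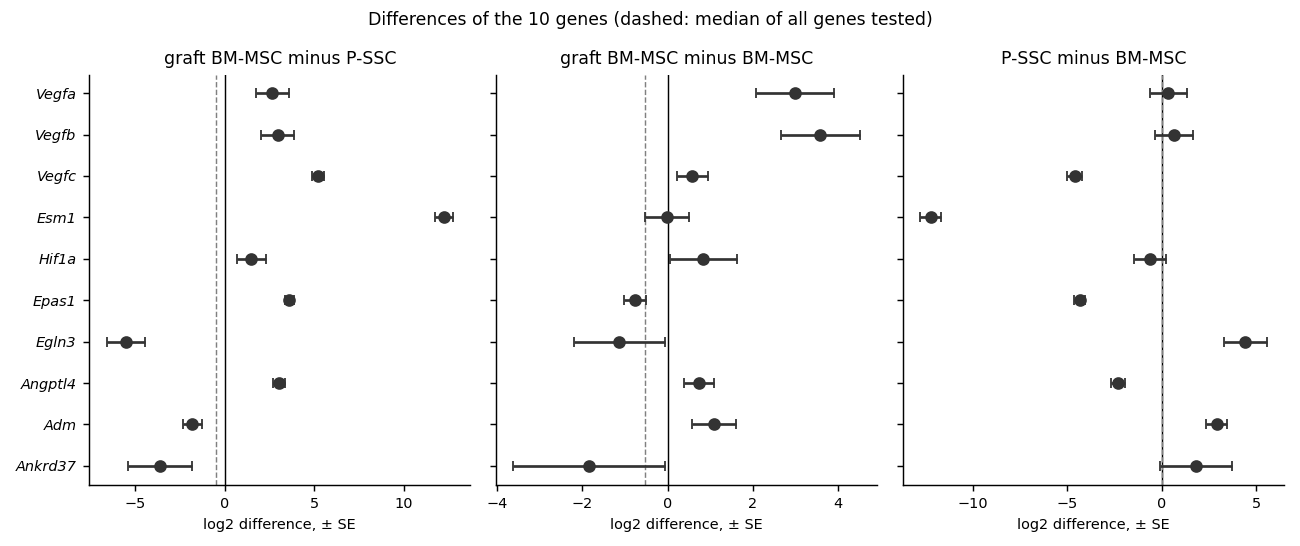
Log2 difference of each of the 10 genes in the 3 comparisons, with SE bars, from the model over all 10 libraries; the dashed line is the median of all 13644 genes tested. Esm1 stands at 12.23 for graft BM-MSCs minus P-SSCs and at -0.01 for graft BM-MSCs minus BM-MSCs.

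The members were counted in the limma model, in which a gene was called at an adjusted p under 0.05 over all genes tested. For graft BM-MSCs against P-SSCs, 4 members were called higher and 2 lower, where 6.08% and 12.0% of all genes were. For P-SSCs against BM-MSCs, 2 were called higher and 4 lower, beside 4.57% and 4.58% of all genes. For graft BM-MSCs against BM-MSCs, 1 member (Vegfb) was called higher and 0 lower, beside 2.61% and 5.06%. Groups did not overlap for 7, 6 and 4 members in these comparisons, beside 26.6%, 30.9% and 25.0% of all genes. Since the members were chosen with these results known, nothing is read from the counts. The comparisons share their libraries. The median of all genes was -0.47, 0.00 and -0.53 (log2) in the same order, and 0.28, 0.01 and 0.23 after the GC correction.

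The genes whose levels followed a member most closely over the 10 libraries were taken from genes with a mean of at least 100, by Pearson's r of log2 values. For Esm1 they were Wdr86 (r = 0.995), Chrdl1 (0.992) and Adipoq (0.992), and for Vegfc they were Wdr86 (0.993), Chrdl1 (0.990) and Akr1c12 (0.984). Epas1 was followed by Ggt5 (0.993), Angptl4 by Cdh11 (0.989) and Adm by Dpt (0.958), a matrix gene that had a mean of 24023 in P-SSCs and 4.80 in BM-MSCs. Between members, r was 0.991 for Esm1 with Vegfc, 0.968 for Esm1 with Epas1 and 0.915 for Vegfa with Vegfb. The points share the group structure and the GC score of the libraries.

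Of the other genes of the same pathways, 70 of 74 listed had a row and 69 were tested. The lists were also written with earlier results of these data known. Their p-values and shares, here and below, are therefore given as a description. Neuropilins, coreceptors of VEGF, were higher in marrow cells. Nrp2 measured 829 to 4474 in the graft, 1471 to 2265 in BM-MSCs and 68.8 to 201 in P-SSCs, a rise in graft BM-MSCs over P-SSCs of 4.06 ± 0.57 (log2, SE; adjusted p = 0.000728, limma). Nrp1 rose by 1.67 ± 0.25 (adjusted p = 0.000943). Vegfd, a further lymphatic ligand, measured 443 to 1303 in P-SSCs and at most 96.7 elsewhere. Pgf overlapped between graft BM-MSCs and either other group. Flt1 was listed at 0 in 8 of 10 libraries and was not tested, and Kdr and Flt4 were not found by symbol.

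The angiopoietins, ligands of the TIE2 receptor, were likewise higher in marrow cells. Angpt1, Angpt2 and Angpt4 rose in graft BM-MSCs over P-SSCs by 2.78 ± 0.67, 3.43 ± 0.44 and 2.27 ± 0.51 (log2, SE), with adjusted p-values of 0.0153, 0.000428 and 0.0107 (limma). The receptor gene Tek ran the other way: P-SSC libraries measured 6869, 4820 and 3254, the graft was listed at 0 in every library and BM-MSCs held 1 read in all. The P-SSC mean was at least 2026 times the graft level, with the graft set to a floor of 3 reads per library. Tie1 was found only in BM-MSC libraries, at 57.4, 204 and 82.8. Tek is also an endothelial marker. The summed level of the 9 other endothelial markers with a row was 303 to 511 in P-SSCs. It was 271 to 659 in BM-MSCs and 0 to 455 in the graft. Of the 9 markers 6, 7 and 4 were above 0 in P-SSCs, BM-MSCs and the graft, and single markers ran both ways. Cdh5 measured 2.08 to 58.6 in P-SSCs and 0 elsewhere, and Plvap 66.5 to 117 in P-SSCs and at most 33.5 elsewhere. Emcn, Stab2 and Tie1 were at 0 in P-SSCs, with BM-MSC means of 52.3, 67.6 and 115. Whether endothelial cells gave the Tek reads was not tested. Pecam1, Kdr and Cldn5 were not found by symbol.

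Of the 4 adrenomedullin receptor genes tested, 0 were called higher and 2 (50%) lower in graft BM-MSCs against P-SSCs. The shares of all genes were 6.08% and 12.0%. Ackr3, a decoy receptor for adrenomedullin and CXCL12, measured 47440, 49512 and 26254 in P-SSCs, at most 374 in the graft and at most 575 in BM-MSCs. In graft BM-MSCs against P-SSCs it fell by 9.77 on the log2 scale (SE 1.77, adjusted p = 0.00328, limma). Ramp2, a partner of the receptor, fell by 1.46 (SE 0.45, adjusted p = 0.0458, limma). The difference was -0.51 after the GC correction and -0.74 with a robust form of it. Calcrl, the receptor itself, measured 344 to 1152 in P-SSCs and 0 to 300 in the graft (adjusted p = 0.163).

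Of the 15 genes of oxygen sensing, 2 rose (13.3%) and 1 fell (6.67%) in graft BM-MSCs against each of the other groups, beside 6.08% and 12.0% of all genes against P-SSCs and 2.61% and 5.06% against BM-MSCs. In either direction edgeR called 1 of the 15 against P-SSCs and 0 against BM-MSCs, where 7 had an unadjusted p under 0.05 in limma, and DESeq2 called 5 in each. The same 2 rose in both: Cited2, an inhibitor of HIF activity, and Egln1, the main prolyl hydroxylase. Cited2 measured 1686 to 3234 in the graft, 96.7 to 221 in BM-MSCs, and 62.3, 49.7 and 782 in P-SSC libraries 1, 2+5 and 4. Its rise over BM-MSCs was 4.04 ± 0.85 (log2, SE; adjusted p = 0.0193), with 4.97 after the GC correction, 4.25 after quantile normalization and 0.25 with the score group as a covariate. Egln1 measured 345 to 1090 in the graft, 124 to 184 in BM-MSCs, and 132, 115 and 208 in P-SSC libraries 1, 2+5 and 4. Its rise was 2.14 over P-SSCs and 2.14 over BM-MSCs, with 3.12 and 3.02 after the GC correction. With the score group as a covariate it was 1.64 and 1.39. For Cited2 and Egln1 alike, that covariate rests on P-SSC 4. Vhl, Arnt and Hif1an did not pass the test in any comparison. Between P-SSCs and BM-MSCs 0 of 15 passed the limma test, 0 had an unadjusted p under 0.05, and edgeR and DESeq2 called 0. Of all genes only 4.57% were called higher and 4.58% lower there by limma, so nothing is read from 0 of 15.

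Of the 41 HIF target genes tested, 5 rose (12.2%) and 8 fell (19.5%) in graft BM-MSCs against P-SSCs, beside 6.08% and 12.0% of all genes. Against BM-MSCs 0 rose and 6 fell (14.6%) in limma, beside 2.61% and 5.06%. In that comparison 15 had an unadjusted p under 0.05 and edgeR called 1 and DESeq2 9 in either direction. Glycolytic genes were among those that fell in both: the log2 difference was -1.25 and -1.37 for Eno1, -1.32 and -1.16 for Pgk1, and -1.0 and -0.98 for Tpi1. After the GC correction the same 3 genes stood at -0.35 and -0.57, -0.48 and -0.31, and 0.01 and -0.03. That correction also moved the medians of all genes, from -0.47 and -0.53 to 0.28 and 0.23. A robust form of it, added later, gave medians of 0.04 and -0.01. With that form the 3 genes stood at -0.56 and -0.78, -0.73 and -0.57, and -0.24 and -0.21. Bhlhe40, a HIF-induced repressor, measured 9579, 11233 and 5498 in P-SSCs and 1015 to 1702 in the graft, and fell by 2.62 (SE 0.33, adjusted p = 0.000385, limma). Slc2a3, a glucose transporter, and Pfkl, a phosphofructokinase, rose over P-SSCs by 2.22 ± 0.60 and 1.52 ± 0.35. Against BM-MSCs Pfkl fell by 1.41 (SE 0.35, adjusted p = 0.036, limma), and the difference of Slc2a3 was -1.33 ± 0.60 (adjusted p = 0.193). Lox, which crosslinks collagen, rose over P-SSCs by 3.64 ± 0.80. It measured 3765 to 10827 in the graft, and 276, 130 and 2177 in P-SSC libraries 1, 2+5 and 4. The rise of Lox was 4.23 after the GC correction and 1.30 with the score group as a covariate.

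Over the 5 lists, for graft BM-MSCs against P-SSCs, 12 of 69 genes (17.4%) were called higher and 13 (18.8%) lower, beside 6.08% and 12.0% of all genes. After the GC correction the split was 15 to 5, and that of all genes turned from 830 higher and 1634 lower to 1569 and 986. Against BM-MSCs 2 (2.9%) were higher and 8 (11.6%) lower, beside 2.61% and 5.06%, and 4 and 2 after the correction. Between P-SSCs and BM-MSCs 6 (8.7%) were higher and 8 (11.6%) lower, beside 4.57% and 4.58%. The median log2 difference of the lists was -0.72, -0.44 and 0.06. Without P-SSC 4 the calls were 14 and 15, 4 and 8, and 5 and 10.

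**Figure D4:**
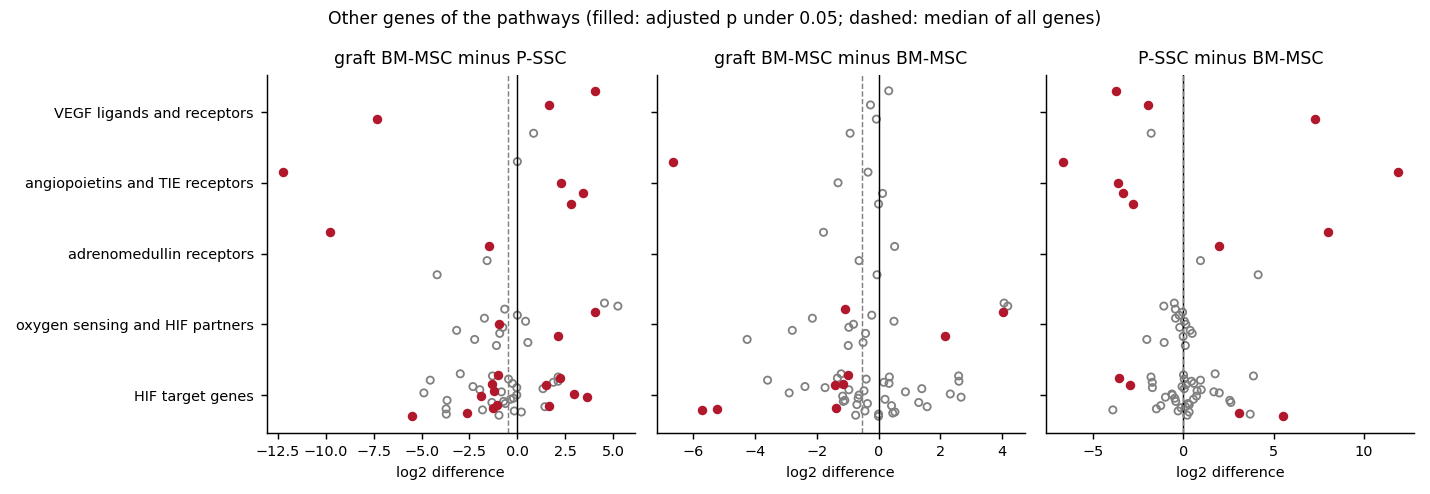
Log2 difference of the 69 other pathway genes by list in the 3 comparisons; filled points passed an adjusted p under 0.05, open points did not, and the dashed line is the median of all genes tested. Between P-SSCs and BM-MSCs none of the 15 oxygen sensing genes is filled and all 5 angiopoietin and TIE genes are. Of all genes 4.57% were called higher and 4.58% lower in that comparison.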

How the data were processed

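RNA of sorted cells was sequenced in 10 libraries. The deposited table holds a signal the authors made by dividing read counts by DESeq2 size factors (0.785 to 1.77). Whole reads were recovered for 100% of values, within 0.01. The methods name GRCm38, whereas the submitters' processing notes name GRCm39, STAR 2.5, featureCounts (Subread 1.4.6), cutadapt 1.15 and DESeq2 1.26.0; the conflict was not resolved. For 15052 of 15078 genes an Ensembl ID was found in GENCODE M21 (GRCm38), which gave positions and GC content; promoters were from RefSeq.

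Genes with a mean of at least 10 (13644; 1434 removed) were tested on log2(value + 1) with limma 3.58.1 (R 4.3.3) in a 3-group model over all libraries, two-sided, with Benjamini-Hochberg adjustment over all genes. The model was run on simulated counts with the same dispersion for all genes and no GC effect. That run checked the code and cannot show how well the model fits these libraries. Log2 differences are on that scale, which understates changes of genes low in every library of a group. Where only some libraries of a group are at 0, as for Ackr3 in the graft, it can overstate the change between group means. The folds printed for Esm1, Egln3 and Tek are ratios of group means or bounds on them. The edgeR (4.0.16) quasi-likelihood test and DESeq2 (1.42.0) were run on recovered reads. Per the study, replicates held RNA of different mice, at times of a pair combined. Other alternatives were pseudocounts of 0.1 and 5, other filters, median centring, quantile normalization, a loess correction for GC content (span 0.3), a score group covariate, and leaving out each library. A robust quadratic form of the GC correction was added after the values of the linear form had been seen.

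The members and lists were chosen with earlier results of these data known. Named were all members, called genes of the pathway lists (at most 6 per direction and comparison), any VEGF receptor, adrenomedullin receptor or oxygen sensing gene, and the 3 genes most like each member. Summed marker levels, as ranges in the graft, in steady-state marrow and in periosteum, were 8149 to 91971, 85987 to 237528 and 1497 to 3829 for 14 hematopoietic genes, 1578 to 4476, 1599 to 8910 and 10518 to 29297 for 8 smooth muscle and pericyte genes, and 65410 to 96145, 580732 to 1264064 and 191238 to 427962 for 6 osteoblast genes.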

Additional observations from a re-analysis of the deposited data

Results flagged for a closer look

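Ankrd37 in graft BM-MSC library 1 stood apart from the other 3 graft libraries: it measured 47.5 normalized reads, whereas the others were listed at 0. Of the 9 members with reads in the graft it was the only one with a library this far from the rest. Because the other 3 are tied at 0, any value above 0 would have stood apart, whatever its size, so nothing is read from it.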

How the results depend on the processing

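Among the 30 member differences, 632 of 684 values under the alternatives moved by less than 1 SD and 52 by more, and no called member changed sign. Some of the 632 could not move, so their share does not measure stability. Other filters, a fit of the 2 groups alone and leaving out a library of the third group keep both group means. Of 1122 values of called pathway genes, 862 stayed past the threshold in the same direction, 259 fell short of it and 1 changed sign (Tpi1 for graft BM-MSCs against P-SSCs, 0.01 after the GC correction). Over the 10 fits that leave out 1 library, the call of Vegfb for graft BM-MSCs against BM-MSCs was made in 2, that of Egln3 for P-SSCs against BM-MSCs in 5 and that of Adm for graft BM-MSCs against P-SSCs in 6, and the other called members were called in all 10. Without P-SSC 4 the Vegfa difference was 3.94 for graft BM-MSCs minus P-SSCs and -0.95 for P-SSCs minus BM-MSCs.

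The counts of called genes were 2464 for graft BM-MSCs against P-SSCs, 1046 for graft BM-MSCs against BM-MSCs and 1248 for P-SSCs against BM-MSCs, and leaving out single libraries gave 1583 to 3005, 476 to 1584 and 917 to 1495. The calls moved by over 1.5 times without P-SSC 1 in the first comparison (1583) and without BM-MSC 1, 2+4 or 3 or P-SSC 4 in the other graft comparison (540, 476, 477 and 1584). For pathway genes the counts were 25, 10 and 14, and leaving out single libraries gave 17 to 29, 2 to 12 and 10 to 16; for graft BM-MSCs against BM-MSCs 6 were called without graft 1 or graft 4, 5 without P-SSC 1, and 2, 3 and 2 without BM-MSC 1, 2+4 and 3. With edgeR 1531, 316 and 619 genes were called, and 1 pathway gene for graft BM-MSCs against BM-MSCs. DESeq2 called 1944 genes in that comparison. With the score group as a covariate 1081 and 40 genes were called in the graft comparisons, and 8 and 0 pathway genes (limma; 7 at an unadjusted p under 0.05 in the latter; DESeq2, run only without the covariate, called 15). Median centring and the GC correction in either form gave 6 pathway genes for graft BM-MSCs against BM-MSCs. The causes were not tested. The GC correction turned the split of calls for graft BM-MSCs against P-SSCs from 830 higher and 1634 lower to 1569 and 986. The robust form, added after that result had been seen, gave 1264 and 1082, with all-gene medians of 0.04 and -0.01 in the graft comparisons in place of 0.28 and 0.23. Quantile normalization gave 1247 and 1241. Against BM-MSCs the split went from 356 and 690 to 877 and 352 with the GC correction, 631 and 384 with its robust form and 588 and 435 with quantile normalization.

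Some libraries of different groups share a replicate number. The deviations of same-numbered libraries from their group means were uncorrelated (r of -0.0191 to 0.0295 over 5 pairs). With so few pairs and small groups, this cannot settle whether same-numbered libraries share an animal. The main model treated the libraries as unpaired. With a replicate block, which leaves 2 residual degrees of freedom in place of 7, 269, 3 and 54 genes and 2, 0 and 0 pathway genes were called (limma; 11 and 16 of the latter 2 at an unadjusted p under 0.05).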
